A study of Mus musculus with 36 samples.

Results

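Immediate early genes are a class of genes that cells transcribe within minutes of a stimulus. The 10 genes described here, *Fos*, *Fosb*, *Jun*, *Junb*, *Egr1*, *Egr2*, *Ier2*, *Atf3*, *Nr4a1* and *Dusp1*, were found by symbol among the 56246 genes measured in mouse tibia. For *Egr2*, whose symbol occurs on 2 rows, the row with the higher mean was taken, and the other row had 0 reads in all libraries. RNA was sequenced in bulk from the tibia of 36 mice of the C57BL/6J line, 6 months of age, with the epiphyses and the marrow removed. The 12 wild-type mice carried no transgene and are labelled NT under treatment, with no injection given in the labels. The 24 transgenic mice were double-copy for a human *LMNA* bacterial artificial chromosome with the G608G change, which also carries *RAB25* and is labelled LMNAG608G/G608G (*LMNA* G/G below), a model of Hutchinson-Gilford progeria. Of these, 12 received saline and 12 received an adenine base editor (ABE) split over a pair of AAV9 vectors, by retro-orbital injection 14 days after birth (P14), and each group held 6 females and 6 males. Wild-type mice bear mouse numbers of a series of their own, and injection and number series cannot be told apart from genotype in any comparison with wild-type.

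Most of these genes encode transcription factors. FOS and JUN proteins pair to form AP-1, EGR proteins are zinc finger factors that bind GC-rich DNA, ATF3 is a stress-induced partner of the same basic leucine zipper class, NR4A1 is an orphan nuclear receptor, and DUSP1 is a phosphatase that switches MAP kinases off again. Their transcription needs no new protein, because the factors that bind their promoters, among them SRF with its ELK partners and CREB, are already present and are activated by kinases. In bone these genes respond to mechanical load, parathyroid hormone and growth factors, and AP-1 proteins are known for their roles in osteoblasts and osteoclasts. They also rise in many tissues during handling and dissociation, and in skeletal muscle after contraction.

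The promoters that carry the motifs of these factors are shown first. Windows of 300 bases, 250 before and 50 after a RefSeq transcription start (build GRCm38.p6), were matched for 8 of the 10 genes, all but *Egr1* and *Ier2*. The windows below are those of *Fos*, *Junb* and *Dusp1*, whose levels did not overlap between saline-treated and wild-type mice, of *Nr4a1*, which differed most between ABE-treated and wild-type mice, and of *Jun*, which was nearest to *Nr4a1* in its variation between mice. They lie at chr12:85473640-85473939 on the plus strand for *Fos*, chr8:84978699-84978998 on the minus strand for *Junb*, chr17:26508423-26508722 on the minus strand for *Dusp1*, chr15:101266596-101266895 on the plus strand for *Nr4a1* and chr4:95052173-95052472 on the minus strand for *Jun*. Each is written 5′ to 3′ along the gene, with capitals for bases of a match, on either strand, to the motifs described next.
Fos: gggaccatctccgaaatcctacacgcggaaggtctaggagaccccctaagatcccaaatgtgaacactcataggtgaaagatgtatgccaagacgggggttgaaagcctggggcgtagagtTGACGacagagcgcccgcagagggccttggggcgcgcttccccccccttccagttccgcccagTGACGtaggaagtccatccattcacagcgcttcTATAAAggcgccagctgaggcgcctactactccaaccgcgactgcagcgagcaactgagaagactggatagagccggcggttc
Junb: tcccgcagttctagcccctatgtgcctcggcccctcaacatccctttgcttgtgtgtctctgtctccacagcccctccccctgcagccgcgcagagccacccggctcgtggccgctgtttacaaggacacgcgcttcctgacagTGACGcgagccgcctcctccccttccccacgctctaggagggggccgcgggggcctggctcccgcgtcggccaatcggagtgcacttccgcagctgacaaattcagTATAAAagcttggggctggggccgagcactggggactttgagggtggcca
Dusp1: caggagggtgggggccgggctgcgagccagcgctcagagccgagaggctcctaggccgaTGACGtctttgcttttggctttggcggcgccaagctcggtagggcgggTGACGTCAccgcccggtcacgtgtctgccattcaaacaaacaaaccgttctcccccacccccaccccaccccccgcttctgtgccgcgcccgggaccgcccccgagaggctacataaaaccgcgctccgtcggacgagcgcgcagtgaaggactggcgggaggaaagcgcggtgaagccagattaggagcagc
Nr4a1: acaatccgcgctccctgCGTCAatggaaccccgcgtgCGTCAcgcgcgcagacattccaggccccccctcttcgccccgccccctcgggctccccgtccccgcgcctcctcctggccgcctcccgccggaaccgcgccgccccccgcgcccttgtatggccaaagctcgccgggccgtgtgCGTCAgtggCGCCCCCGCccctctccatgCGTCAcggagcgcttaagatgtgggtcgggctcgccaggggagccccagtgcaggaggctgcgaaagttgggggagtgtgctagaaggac
Jun: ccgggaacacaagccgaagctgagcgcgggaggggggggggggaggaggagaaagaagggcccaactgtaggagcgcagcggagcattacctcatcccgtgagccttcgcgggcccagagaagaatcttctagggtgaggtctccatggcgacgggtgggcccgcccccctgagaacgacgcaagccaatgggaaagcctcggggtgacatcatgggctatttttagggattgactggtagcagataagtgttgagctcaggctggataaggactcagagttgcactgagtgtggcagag

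The motifs searched were the CREB site TGACGTCA and its core TGACG, the AP-1 site TGANTCA, the EGR site GCGNGGGCG, the TATAAA box and the CArG box that SRF binds (CC, then 6 letters of A or T, then GG), and TGACG lies within every TGACGTCA. *Egr2* was searched in 5 windows, of different starts, and each other gene in 1. A gene counts if any of its windows holds a match, while the shares given beside are of single windows. TGACG occurred in the windows of 7 of the 8 genes, all but *Jun*, where 20.8% of 32851 mouse promoter windows held it. *Nr4a1* had 4 matches, *Dusp1* 3, of which 2 are the strands of 1 whole TGACGTCA site, *Fos* 2 and *Junb* 1. The whole site was found in *Dusp1* alone of the 8, 143 bases before the start, against 1.79% of windows. TATAAA was found in *Fos*, 33 bases before the start, and in *Junb*, against 13.6% of windows. In *Junb* it begins at the RefSeq start of the window, base 84978748. The GENCODE gene begins at base 84978718 on this minus strand, so the match lies before that start. The EGR site was in *Fosb* and *Nr4a1* (5.55% of windows), the CArG box in *Egr2* only (1.63%), and TGANTCA in 0 of the 8 (7.81%). A match describes these letters within the window and no more.

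The values are TPM, a read count per length of gene that sums to the same total in each library. Very short genes took most of that total, from 84.7% in wild-type replicate 11 to 96.6% in ABE-treated replicate 1. The TPM of longer genes are therefore small, and rescaling does not restore their absolute level. Because the share varied, each library was divided here by a factor, the median over genes of its TPM against their geometric mean. Reads on genes numbered 48064068 to 116206662 per library (median 78234452.5), and the rescaling factor was 0.219 in ABE-treated female replicate 1 and 0.610 to 1.57 in the other libraries. Results without that library are given where it changes a call. It also holds the highest *Jun*, *Nr4a1* and *Dusp1* of the ABE-treated mice, at 17.3, 31.8 and 19.8 TPM. As deposited, these values were 3.78, 6.95 and 4.33 TPM. The osteocyte genes *Sost*, *Mepe* and *Dmp1* were present in every group, and the summed level of 11 osteocyte markers lay between 12.7 and 54.9 TPM in wild-type mice, between 178 and 504.4 after saline and between 183 and 360.5 after ABE. The names of 3 transgenic mice hold the letters WT, and their osteocyte sums of 331 to 418 TPM lay among those of the transgenic mice. Without these 3 mice, the comparisons described next called 7, 7 and 6 of 8 genes, as with them. Replicates were separate mice.

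Ordered by their mean level per length in wild-type bone, *Ier2* came first at 6.63 ± 0.94 TPM (SD, n = 12), followed by *Junb* at 5.18 ± 0.85, *Dusp1* at 4.07 ± 0.73, *Jun* at 2.87 ± 0.86, *Nr4a1* at 2.22 ± 0.71, *Egr1* at 1.49 ± 0.48 and *Fos* at 1.28 ± 0.42. *Atf3* at 0.442 ± 0.097, *Egr2* at 0.285 ± 0.091 and *Fosb* at 0.122 ± 0.046 formed the low end. The ranges of 8 of the 9 neighbours in this order overlapped, the exception being *Fos* and *Atf3*. In ABE-treated mice the order had changed, with *Nr4a1* at 12.6 ± 7.18 TPM and *Dusp1* at 12.4 ± 3.40 at the top, *Ier2* behind *Junb* at 6.21 ± 1.07, and 9 of 9 neighbours overlapping. Fewest reads lay behind *Fosb* (93 to 4238 per library), *Atf3* (138 to 1387) and *Egr2* (175 to 864), while the other 7 genes had at least 469.

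**Figure D1:**
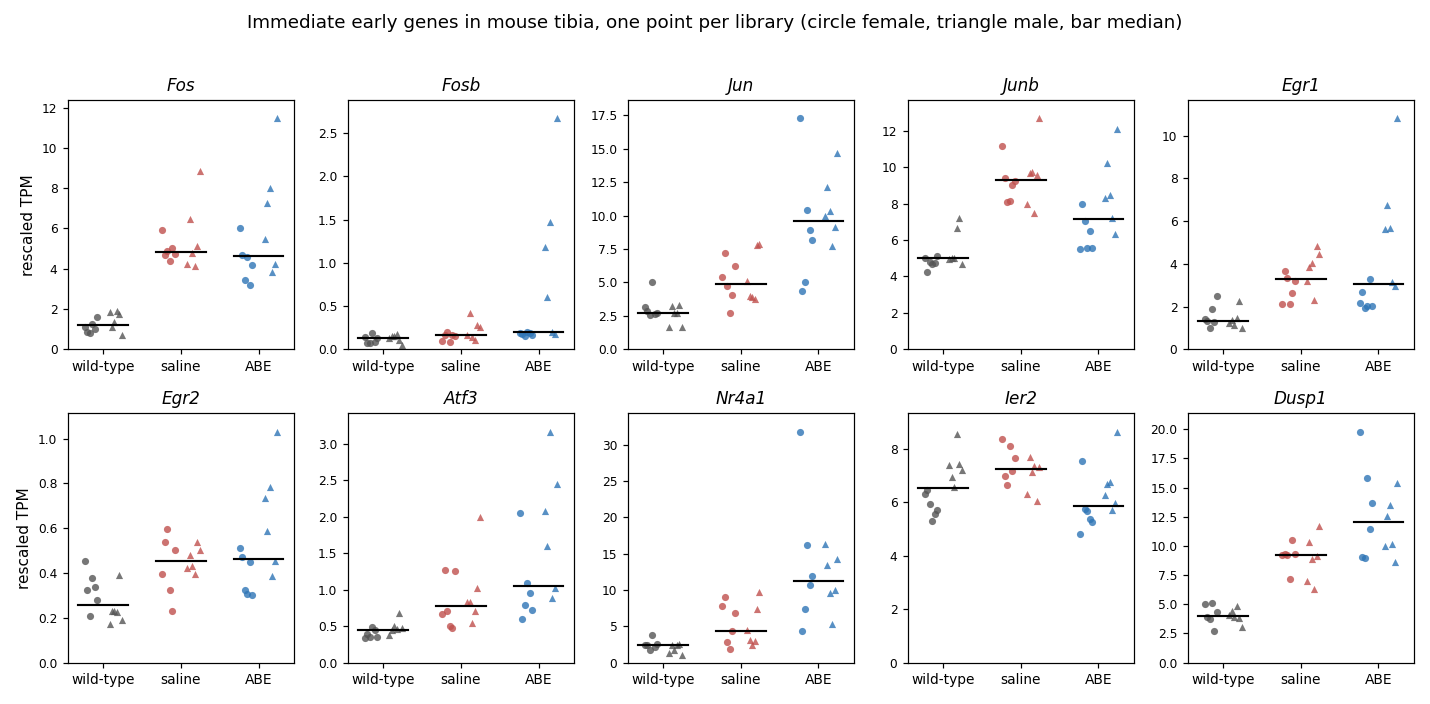
Level of the 10 immediate early genes in rescaled TPM (vertical axis, linear, from 0) for 12 mice in each group, with a circle for each female, a triangle for each male and a bar at the group median. *Fos* and *Dusp1* lie higher in every transgenic mouse than in any wild-type mouse, *Ier2* overlaps between all groups, and *Fosb* is high in 4 ABE-treated males.

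Groups were compared with limma on log2(rescaled TPM + 0.5) with sex as a covariate, for 15902 genes that reached 0.5 TPM on average, so that a log2 change understates the change of a low gene. Of the 10 genes 8 passed this filter, *Atf3* through its level in transgenic mice, since its wild-type mean was under the limit. *Fosb* and *Egr2* did not pass, and their tests come from a fit of all 43628 genes detected. In saline-treated against wild-type mice, 7 of the 8 tested genes were higher and 0 lower (adjusted p under 0.05, Benjamini-Hochberg), where 27.7% of all genes were higher and 24.6% lower. In ABE-treated against wild-type mice, 7 of the 8 were again higher and 0 lower, where 35% of all genes were higher and 35.2% lower. Between ABE-treated and saline-treated mice 4 of the 8 were higher and 2 lower, against 23.2% and 25.1% of all genes. The median log2 changes of the 8 genes were 0.86, 1.27 and 0.27, and those of all genes 0.02, -0.02 and -0.02. In the unfiltered fit, where 14.1%, 21.6% and 12.5% of all genes were higher, *Egr2* was higher in both transgenic groups than in wild-type mice, and *Fosb* was higher in ABE-treated mice than in either other group. With TPM as deposited, 22.4%, 13.8% and 7.70% of the called genes were higher, against 53.0%, 49.8% and 48.0% after rescaling. These comparisons share groups and are not independent. In tissue of mixed cells, a change in the number of cells of a type cannot be told apart from a change in RNA per cell.

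**Figure D2:**
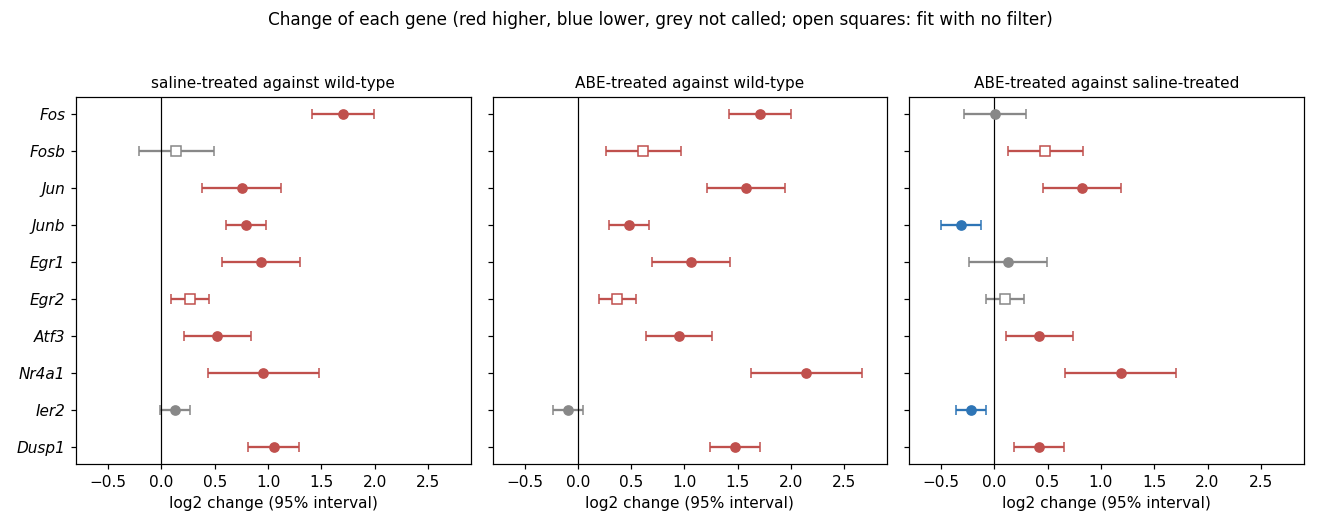
Log2 change with its confidence interval (horizontal axis) of each gene in the 3 comparisons, red where higher, blue where lower and grey where the adjusted p was 0.05 or more, with open squares for *Fosb* and *Egr2* from the fit without a filter. *Fos* rose by 1.70 and 1.71 in the transgenic groups, while *Nr4a1* and *Jun* stood higher in ABE-treated than in saline-treated mice and *Junb* and *Ier2* lower.

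*Fos* (chromosome 12, 85473890 to 85477273 of GRCm38) showed the largest rise of the 10 in *LMNA* G/G bone without ABE. Its level ran from 0.731 to 1.91 TPM in wild-type mice (median 1.19), from 4.13 to 8.83 in saline-treated mice (median 4.83) and from 3.21 to 11.5 in ABE-treated mice (median 4.65). All 24 transgenic mice thus lay above all 12 wild-type mice, whereas the transgenic groups overlapped nearly throughout. The mean was 4.11-fold that of wild-type in saline-treated mice, with a log2 change of 1.70 (SE 0.14, adjusted p = 2.6e-11). The log2 change in ABE-treated mice was 1.71 (SE 0.14, adjusted p = 2.2e-11). Between ABE-treated and saline-treated mice it was 0.01, with an interval of -0.28 to 0.30 (adjusted p = 0.97), and -0.33 with TPM as deposited (adjusted p = 0.13). Among all genes, 3.06% were higher with no overlap after saline and 4.14% after ABE against wild-type.

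*Fosb* (chromosome 7), the other FOS family member listed, was low in most mice. Its level was 0.0476 to 0.194 TPM in wild-type (median 0.128), 0.0825 to 0.418 in saline-treated (median 0.166) and 0.151 to 2.67 in ABE-treated mice (median 0.196). The ABE-treated males spread widely, at 0.172, 0.203, 0.601, 1.18, 1.47 and 2.67 TPM, and 4 of the 6 lay above every other library, of which the highest was 0.418. The 6 ABE-treated females stayed between 0.151 and 0.198. The log2 change was 0.14 in saline-treated mice (SE 0.17, adjusted p = 0.62) and 0.61 in ABE-treated mice (SE 0.17, adjusted p = 0.0037) against wild-type.

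*Jun* (chromosome 4, a single exon) encodes the DNA-binding partner of FOS proteins. It was measured at 1.68 to 5.05 TPM in wild-type (median 2.71), 2.75 to 7.87 in saline-treated (median 4.89) and 4.34 to 17.3 in ABE-treated mice (median 9.58). The groups formed a series of steps with overlap at each, and 10 of 12 ABE-treated mice lay above the highest wild-type mouse. The log2 change was 0.75 (SE 0.18, adjusted p = 8.7e-04) after saline and 1.58 (SE 0.18, adjusted p = 8.6e-09) after ABE, both against wild-type. ABE-treated mice were higher than saline-treated mice by 0.82 on the log2 scale (SE 0.18, adjusted p = 0.0011). In females alone neither the change after saline, at 0.58 (adjusted p = 0.16), nor that between the transgenic groups, at 0.69 (adjusted p = 0.070), was called.

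*Junb* (chromosome 8, 84974484 to 84978718) encodes a JUN protein that can restrain JUN. It ran from 4.27 to 7.18 TPM in wild-type (median 4.99), from 7.51 to 12.7 in saline-treated (median 9.30) and from 5.48 to 12.1 in ABE-treated mice (median 7.14). Saline-treated and wild-type mice did not overlap, and ABE-treated mice overlapped with both. The log2 change was 0.79 (SE 0.09, adjusted p = 2.1e-08) after saline and 0.48 (SE 0.09, adjusted p = 3.0e-05) after ABE, both against wild-type, and ABE-treated mice were lower than saline-treated mice (log2 change -0.31, SE 0.09, adjusted p = 0.0073). In the fit of males alone that difference was -0.12 (adjusted p = 0.58). The rise in ABE-treated mice depended on the rescaling: with TPM as deposited, where the median change of all genes in that comparison was -0.42, the change of *Junb* was -0.04 (adjusted p = 0.85).

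*Egr1* (chromosome 18) and *Egr2* (chromosome 10) encode related zinc finger factors at different levels. *Egr1* was measured at 0.985 to 2.50 TPM in wild-type (median 1.33), 2.10 to 4.84 in saline-treated (median 3.27) and 1.93 to 10.8 in ABE-treated mice (median 3.06). Its log2 change was 0.94 (SE 0.18, adjusted p = 6.4e-05) after saline and 1.06 (SE 0.18, adjusted p = 4.6e-06) after ABE, both against wild-type. The transgenic groups did not separate, with a log2 change of 0.13 and an interval of -0.24 to 0.49 (adjusted p = 0.58), which was -0.16 with TPM as deposited (adjusted p = 0.54), and the ABE-treated mice were the more spread. *Egr2* was measured at 0.171 to 0.455 TPM in wild-type, 0.229 to 0.595 after saline and 0.300 to 1.03 after ABE, with medians of 0.255, 0.455 and 0.463. It was higher than in wild-type by 0.27 (SE 0.09, adjusted p = 0.016) after saline and by 0.37 (SE 0.09, adjusted p = 5.6e-04) after ABE, with overlap in both.

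*Atf3* (chromosome 1) and *Nr4a1* (chromosome 15) followed the pattern of *Jun*. *Atf3* was measured at 0.335 to 0.685 TPM in wild-type (median 0.441), 0.469 to 1.99 in saline-treated (median 0.769) and 0.594 to 3.16 in ABE-treated mice (median 1.05). Its log2 change was 0.52 (SE 0.15, adjusted p = 0.0048) after saline and 0.95 (SE 0.15, adjusted p = 2.1e-06) after ABE, both against wild-type. After saline it was 0.52 in females alone (adjusted p = 0.065) and 0.53 in males alone (adjusted p = 0.059). The further difference of 0.42 between ABE-treated and saline-treated mice (SE 0.15, adjusted p = 0.023) was lost without ABE-treated replicate 1, at 0.36 (adjusted p = 0.051), with TPM as deposited, at 0.19 (adjusted p = 0.32), and with only these groups in the fit (adjusted p = 0.062). It was not called in females alone, at 0.21 (adjusted p = 0.42), or in males alone, at 0.64 (adjusted p = 0.057).

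*Nr4a1* showed the largest change of the 10 in ABE-treated mice. Its level was 1.09 to 3.85 TPM in wild-type (median 2.41), 1.85 to 9.65 in saline-treated (median 4.397) and 4.35 to 31.8 in ABE-treated mice (median 11.3). All 12 ABE-treated mice lay above all wild-type mice, while 7 of 12 saline-treated mice did. The log2 change was 0.96 (SE 0.26, adjusted p = 0.0023) after saline and 2.14 (SE 0.26, adjusted p = 1.6e-08) after ABE, both against wild-type, and 1.19 (SE 0.26, adjusted p = 9.8e-04) between the transgenic groups. In females alone the change after saline was 0.84 (adjusted p = 0.16). *Nr4a1* also had the largest SD of the 10 on the log2 scale in every group. This SD was 0.76 after saline and 0.77 after ABE, where the median gene had 0.17 and 0.23, against 0.36 and 0.15 in wild-type. The constant added before taking logs lowers it for low genes such as *Fosb*. As a share of the mean in rescaled TPM, the SD in ABE-treated mice was 127.9% for *Fosb* and 57.0% for *Nr4a1*. After saline the shares were 50.7% and 52.7%.

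*Dusp1* (chromosome 17) had the highest mean of the 10 over all libraries. It was measured at 2.73 to 5.09 TPM in wild-type (median 4.001), 6.33 to 11.7 in saline-treated (median 9.22) and 8.60 to 19.8 in ABE-treated mice (median 12.01). No transgenic mouse overlapped with wild-type. The log2 change was 1.05 (SE 0.12, adjusted p = 7.8e-09) after saline and 1.47 (SE 0.12, adjusted p = 6.7e-12) after ABE, both against wild-type. The difference of 0.42 between the transgenic groups (SE 0.12, adjusted p = 0.0049) fell to 0.05 with TPM as deposited (adjusted p = 0.78), where the median of all genes was -0.27. It was not called in females alone, at 0.46 (adjusted p = 0.061), or in males alone, at 0.38 (adjusted p = 0.091).

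*Ier2* (chromosome 8, 311631 bases from *Junb*), a nuclear regulator, was the 1 tested gene not called against wild-type. Its level was 5.30 to 8.57 TPM in wild-type (median 6.54), 6.07 to 8.40 in saline-treated (median 7.26) and 4.83 to 8.66 in ABE-treated mice (median 5.86), and the 3 groups overlapped nearly throughout. The log2 change against wild-type was 0.13 in saline-treated mice, with an interval of -0.01 to 0.27 (adjusted p = 0.12), though it was called in the fit of females alone, at 0.32 (adjusted p = 0.014). It was -0.06 with TPM as deposited (adjusted p = 0.81) and -0.07 in males alone (adjusted p = 0.51). In ABE-treated mice it was -0.09, with an interval of -0.23 to 0.05 (adjusted p = 0.24), and with TPM as deposited it was called lower, at -0.61 (adjusted p = 0.0011). ABE-treated mice were lower than saline-treated mice by a log2 change of -0.22 (SE 0.07, adjusted p = 0.011), which was -0.07 in males alone (adjusted p = 0.59).

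The sexes were compared over the 3 groups and within each comparison. Between females and males 0 of the 8 tested genes passed, where 0.497% of all genes did, although 5 had an unadjusted p under 0.05 and were lower in females. With TPM as deposited, 7 of the 8 were called lower in females. In that setting the median of all genes was -0.27, and 8414 of 15902 genes were called lower in females and 40 higher. The log2 difference was -0.43 for *Egr1* (adjusted p = 0.21) and -0.30 for *Fos* (adjusted p = 0.31). Whether an effect differed between the sexes was tested as an interaction. For saline-treated against wild-type 0 of the 8 passed (1.03% of all genes), with 1 before adjustment (p under 0.05), and for ABE-treated against saline-treated 0 of the 8 (0.0566%), with 3. With limma-voom these counts, and that of females against males, were also 0. For ABE-treated against wild-type 1 of the 8 passed (3.68%), which was *Egr1*. It rose by 1.64 in males (adjusted p = 4.7e-05, fit of males alone) and by 0.49 in females (adjusted p = 0.023, fit of females alone). The difference, female minus male, was -1.15 (SE 0.31, adjusted p = 0.034), and in the fit without a filter its adjusted p was 0.061. ABE-treated males held 2.96 to 10.8 TPM of *Egr1* (median 5.65) and ABE-treated females 1.93 to 3.28 (median 2.09), while wild-type males and females had medians of 1.30 and 1.35. *Egr2* and *Fosb* had interactions in the same direction, at -0.53 (adjusted p = 0.075) and -0.94 (adjusted p = 0.12). The male with the highest *Fos*, *Fosb*, *Junb*, *Egr1*, *Egr2* and *Ier2* of the ABE-treated group was in each case replicate 12, and without it the difference in *Egr1* was -0.96 (adjusted p = 0.076).

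How the genes varied between mice of the same group and sex was described by correlations over the 36 libraries after the mean of each group and sex had been removed, with permutations within group and sex. Of the 45 pairs 42 had r above 0, and 32 passed (adjusted p under 0.05), 31 by Spearman's rho, with a median r of 0.49. The share of all pairs of genes that would pass was not calculated, and these counts are not shown to be particular to the 10 genes. Genes outside the 10 were as close, with r = 0.94 for *Jun* and *Hivep2* and 0.95 for *Nr4a1* and *Tob1*. *Jun* and *Nr4a1* were the closest pair, with r = 0.92 and rho = 0.89 (both permutation p = 1e-05, the smallest that 100000 permutations give, adjusted p = 1.1e-04 and 1.5e-04), and r = 0.88 without the 2 most extreme libraries. In the order wild-type, saline and ABE, r within each group was 0.93, 0.94 and 0.92. *Fos* was closest to *Dusp1*, with r = 0.71 and rho = 0.72 (both permutation p = 1e-05, adjusted p = 1.1e-04 and 1.5e-04), and r = 0.65 without 2 libraries. *Egr1* went with *Egr2*, with r = 0.73 (permutation p = 7.0e-05, adjusted p = 5.1e-04) and rho = 0.68 (permutation p = 9.0e-05, adjusted p = 9.9e-04), and r = 0.63 without 2 libraries. *Ier2* went with *Junb*, its nearest neighbour on the chromosome among the 10, with r = 0.62 (permutation p = 4.4e-04, adjusted p = 0.0014) and rho = 0.55 (permutation p = 0.0017, adjusted p = 0.0052), and r = 0.54 without 2 libraries. *Ier2* and *Jun* gave the lowest value of all pairs, r = -0.29 and rho = -0.25 (permutation p = 0.14 and 0.18, adjusted p = 0.17 and 0.22), and r = -0.04 without 2 libraries. Within single groups, *Fos* was compared with each other gene over 12 mice, and 9 of 27 correlations passed, 1 in wild-type, 2 after saline and 6 after ABE, of which 2 of 27 also passed by rho.

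**Figure D3:**
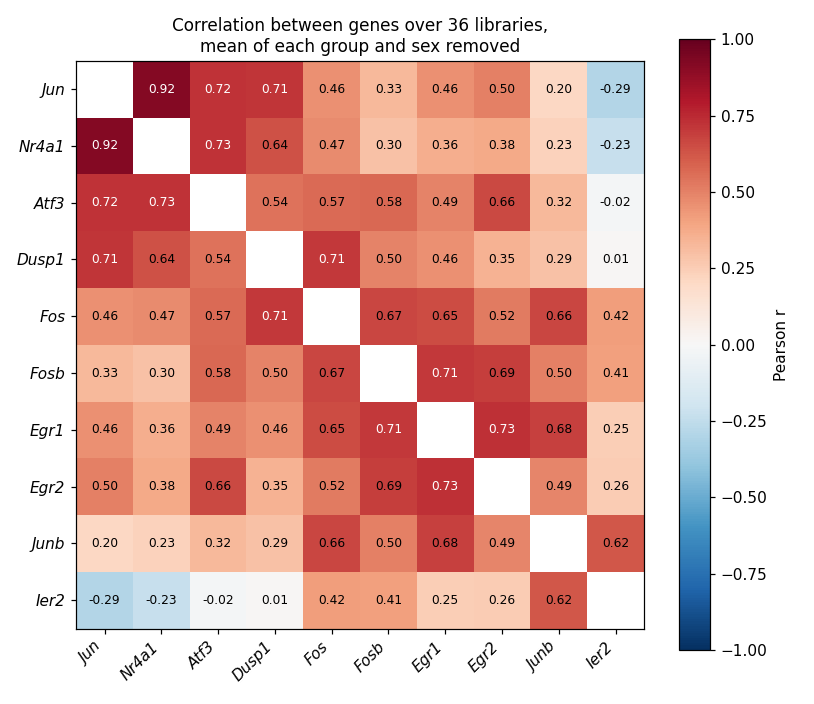
Pearson r between each pair of the 10 genes over 36 libraries after the mean of each group and sex was removed, on a colour scale from -1 (blue) to 1 (red). Each cell carries its r, which is 0.92 for *Jun* and *Nr4a1* and between -0.29 and 0.01 for *Ier2* with *Jun*, *Nr4a1*, *Atf3* and *Dusp1*.

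Marker genes of other cell types differed between the groups too. The summed level of 15 skeletal muscle genes, led by *Acta1*, *Pvalb* and *Myh4*, ran from 215 to 3202 TPM in wild-type (median 1056), from 362 to 8362 in saline-treated (median 2281) and from 1166 to 13962 in ABE-treated mice (median 6761), with 0 of the 15 at 0. Of these 15 genes, 11 were higher after saline and 15 after ABE against wild-type, and 13 were higher in ABE-treated than in saline-treated mice, with median log2 changes of 1.34, 2.56 and 1.30. In the same order, 27.7%, 35% and 23.2% of all genes were higher. Across mice of the same group and sex, *Jun* followed the mean log2 level of the muscle genes, with r = 0.89 and rho = 0.90 (both permutation p = 1e-05, adjusted p = 2.2e-04 and 3.0e-04), and r = 0.86 without the 2 libraries farthest from the median. *Nr4a1* did so with r = 0.88 and rho = 0.88 (both permutation p = 1e-05, adjusted p = 2.2e-04 and 3.0e-04), and r = 0.83 without 2 libraries. *Atf3* was next, with r = 0.54 (permutation p = 6.7e-04, adjusted p = 0.0042) and rho = 0.63 (permutation p = 9.0e-05, adjusted p = 9.0e-04), and r = 0.48 without 2 libraries. *Dusp1* had r = 0.46 (permutation p = 0.0078, adjusted p = 0.032) and rho = 0.41 (permutation p = 0.020, adjusted p = 0.061), and r = 0.35 without 2 libraries. *Ier2* ran against the muscle genes, with r = -0.44 (permutation p = 0.012, adjusted p = 0.041) and rho = -0.42 (permutation p = 0.017, adjusted p = 0.056), and r = -0.27 without 2 libraries. *Fos* was not found to follow them, with r = 0.21 and rho = 0.20 (permutation p = 0.19 and 0.25, adjusted p = 0.28 and 0.33), and r = 0.25 without 2 libraries. The same held for *Junb*, with r = 0.09 and rho = 0.08 (permutation p = 0.60 and 0.67, adjusted p = 0.62 and 0.71), and r = 0.19 without 2 libraries. These are among 90 relations tested, of 10 genes with 9 measures. With log2 reads on genes *Junb* alone passed, with r = -0.48 and rho = -0.55 (permutation p = 0.010 and 0.0022, adjusted p = 0.041 and 0.013). With the log2 rescaling factor *Egr2* and *Fosb* passed by r, at -0.42 and -0.29 (permutation, adjusted p = 0.028 and 0.045), and 0 genes by rho. Whether depth bears on the differences of *Junb* between groups was not tested.

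**Figure D4:**
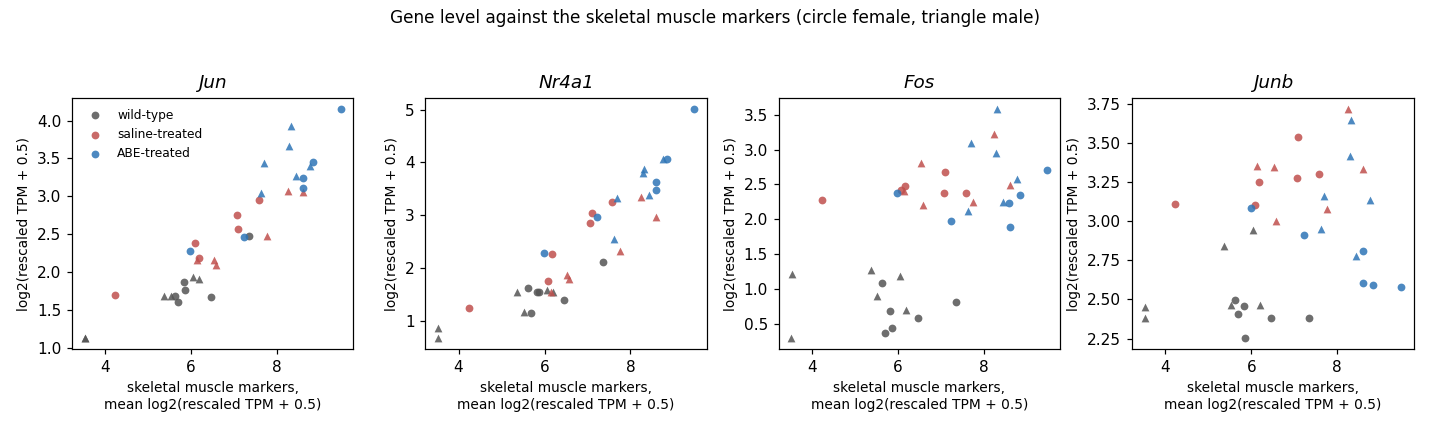
Log2(rescaled TPM + 0.5) of *Jun*, *Nr4a1*, *Fos* and *Junb* (vertical axes) against the mean log2 level of 15 skeletal muscle genes (horizontal axes) in 36 libraries, coloured by group, with circles for females and triangles for males. *Jun* and *Nr4a1* rise along the axis within each group (r = 0.89 and 0.88 within group and sex), whereas *Fos* lies lower in all wild-type mice than in the transgenic mice.

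The comparisons were therefore also fitted with 4 covariates, the mean levels of muscle, neutrophil, erythroid and B cell genes. Of the 8 genes 5 were then higher after saline and 4 after ABE against wild-type, where 8.83% and 5.3% of all genes were higher. *Fos* kept its rise against wild-type, at 1.84 (SE 0.27, adjusted p = 6.2e-05) after saline and 1.65 (SE 0.28, adjusted p = 3.2e-04) after ABE, and so did *Dusp1*, at 1.17 (SE 0.20, adjusted p = 1.8e-04) and 1.38 (SE 0.20, adjusted p = 6.3e-05). *Junb* was higher by 0.99 (adjusted p = 3.5e-04) and 0.57 (adjusted p = 0.041), and *Jun* by 0.53 (adjusted p = 0.020) and 0.82 (adjusted p = 0.0014). *Nr4a1* was no longer called, with 0.31 (adjusted p = 0.46) after saline and 0.76 (adjusted p = 0.071) after ABE, both against wild-type. *Atf3* was not called either, at 0.54 (SE 0.26, adjusted p = 0.16) and 0.63 (SE 0.27, adjusted p = 0.12), and *Egr1* was called in saline-treated mice (1.14, adjusted p = 0.016) but not in ABE-treated mice (0.99, adjusted p = 0.054). Between ABE-treated and saline-treated mice, *Junb* was the 1 gene of 8 still called (log2 change -0.42, adjusted p = 0.039), where 2.31% of all genes were lower, and the differences of *Nr4a1* and *Jun* came to 0.45 (adjusted p = 0.15) and 0.29 (adjusted p = 0.12).

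**Figure D5:**
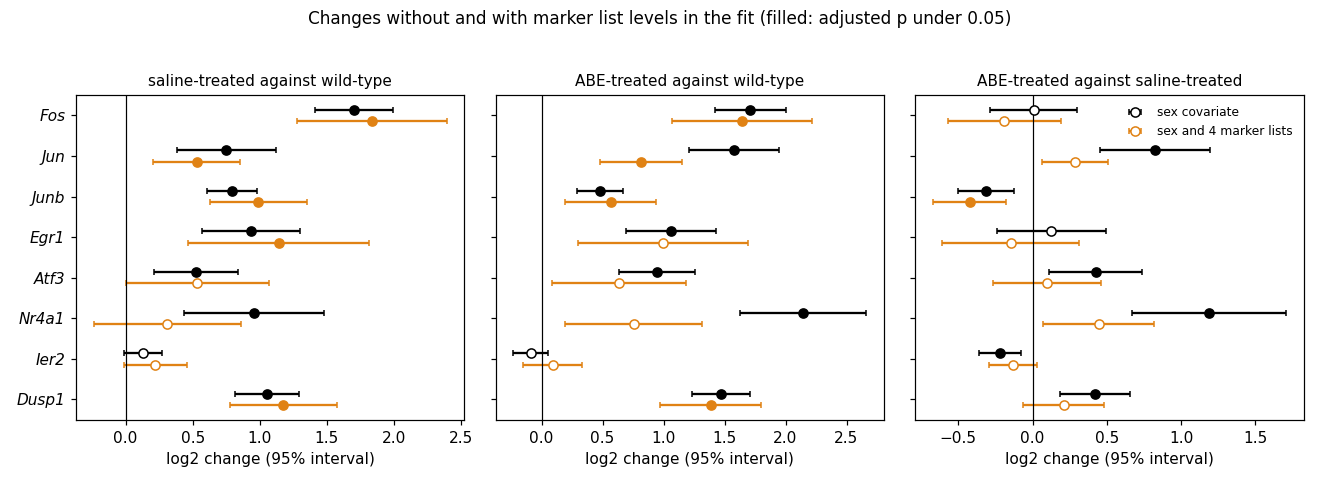
Log2 change with its confidence interval of the 8 tested genes in the 3 comparisons, in black with sex as the covariate and in orange with 4 marker list levels added, filled where the adjusted p was under 0.05. The values of *Fos*, *Junb* and *Dusp1* against wild-type stay filled, while *Nr4a1* moves towards 0 in all 3 comparisons.

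Other marker lists moved as well. Of the lists below, only the neutrophil, erythroid and B cell lists were in the fit with covariates, and the part of the others was not tested. Neutrophil genes, 8 of 10 lower in ABE-treated than in saline-treated mice, ran against *Jun* with r = -0.79 and rho = -0.73 (permutation p = 2.0e-05 and 3.0e-05, adjusted p = 3.0e-04 and 4.5e-04), and r = -0.68 without 2 libraries. By r they passed with 4 of the 10 genes, the others being *Nr4a1*, *Dusp1* and *Atf3* (r = -0.67, -0.64 and -0.51). Erythroid genes passed by r with 5, which were *Jun*, *Nr4a1*, *Atf3*, *Egr1* and *Egr2* (r = -0.73, -0.66, -0.54, -0.48 and -0.47). B cell genes passed by r with 2, *Jun* and *Nr4a1* (r = -0.50 each). Endothelial genes, 5 of 10 higher after saline and 7 after ABE against wild-type, went with *Egr1*, with r = 0.70 and rho = 0.75 (both permutation p = 2.0e-05, adjusted p = 3.0e-04 and 3.6e-04), and r = 0.69 without 2 libraries. By r they passed with 3 of the 10 genes, the others being *Jun* and *Egr2* (r = 0.58 and 0.55). Osteocyte genes went by r with 2 of the 10 genes. These were *Egr2*, with r = 0.57 (permutation p = 6.9e-04, adjusted p = 0.0042) and r = 0.44 without 2 libraries, and *Egr1*, with r = 0.54 (permutation p = 7.7e-04, adjusted p = 0.0043) and r = 0.52 without 2 libraries. In saline-treated against wild-type mice 9 of 9 osteocyte and 8 of 9 osteoclast genes tested were higher, 8 of 10 B cell and 5 of 6 cartilage genes were lower, and 4 of 10 osteoblast genes were higher. In ABE-treated against saline-treated mice 8 of 9 osteoclast, 7 of 8 erythroid, 7 of 7 macrophage and 5 of 6 adipocyte genes were lower, and 5 of 7 smooth muscle and pericyte genes were higher. Among all genes, 27.7% were higher and 24.6% lower after saline against wild-type, and 35% were higher after ABE against wild-type. Between ABE-treated and saline-treated mice 23.2% of all genes were higher and 25.1% lower.

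In the wider class of immediate early genes calls went both ways. Of 60 further genes listed 54 were tested, and 29 were higher and 6 lower in saline-treated against wild-type mice, 30 higher and 13 lower in ABE-treated against wild-type mice, and 15 higher and 13 lower between ABE-treated and saline-treated mice. In the same order, 27.7%, 35% and 23.2% of all genes were higher and 24.6%, 35.2% and 25.1% lower. The median log2 changes of the 54 were 0.26, 0.24 and -0.00, against 0.02, -0.02 and -0.02 for all genes. *Egr3*, of the EGR family, rose from 0.90 TPM in wild-type to 3.50 after saline and 4.22 after ABE (log2 change 1.51 and 1.72, adjusted p = 1.2e-10 and 5.8e-12). *Ccn1*, a secreted matrix protein induced by serum, rose by 1.47 and 1.89 (adjusted p = 2.1e-07 and 1.2e-09), and *Cebpb*, a leucine zipper factor, by 1.15 and 1.23 (adjusted p = 3.8e-08 and 6.5e-09). *Socs3*, an inhibitor of cytokine signalling, rose by 0.99 in saline-treated mice (adjusted p = 7.3e-10) and was lower in ABE-treated than in saline-treated mice by a log2 change of -0.57 (adjusted p = 2.4e-04). *Dusp2*, a phosphatase of immune cells, was lower in both transgenic groups, at -0.97 and -1.03 (adjusted p = 1.1e-08 and 2.0e-09). The most abundant member of the class, *Jund*, was at 21.9 ± 2.49 TPM (SD, n = 12) in wild-type and 22.4 ± 2.29 in saline-treated mice (log2 change 0.04, adjusted p = 0.72), and was higher in ABE-treated than in wild-type mice by 0.26 (adjusted p = 0.0036).

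Of 33 upstream kinases and promoter-binding factors, 9 were higher and 6 lower in saline-treated against wild-type mice, 15 higher and 8 lower in ABE-treated against wild-type mice, and 15 higher and 4 lower between ABE-treated and saline-treated mice, beside the same shares of all genes. Their median log2 changes were 0.08, 0.08 and 0.07. *Mef2c*, a factor of muscle and bone that binds immediate early promoters, rose by 0.97 and 1.56 against wild-type (adjusted p = 2.7e-06 and 3.6e-10), and *Mef2a* by 0.83 and 0.88 (adjusted p = 1.8e-11 and 4.2e-12). Of 15 AP-1 and ATF partner genes tested, 6 were higher and 2 lower, 8 higher and 4 lower, and 4 higher and 3 lower in the same order of comparisons. Beside these counts and those of the lists that follow, 27.7%, 35% and 23.2% of all genes were higher and 24.6%, 35.2% and 25.1% lower. *Jdp2*, a repressor of AP-1, was higher by 0.59 in saline-treated mice (adjusted p = 2.1e-06), and *Bach2*, a B cell factor, was lower by a log2 change of -0.86 (adjusted p = 6.0e-05). Of 12 glucocorticoid-induced genes 12 were higher after saline and 11 after ABE against wild-type, with median log2 changes of 0.936 and 0.997, and 3 were higher and 3 lower between the transgenic groups. This list shares *Errfi1*, *Per1* and *Sgk1* with the wider immediate early list and *Lcn2* with the neutrophil list. Among the most abundant, the metallothionein gene *Mt2* had a mean of 5.83 TPM in wild-type mice, 25.04 after saline and 12.8 after ABE. Of 16 heat shock genes 9 and 14 were higher against wild-type and 10 were higher and 2 lower between the transgenic groups, and across mice their mean level went with *Jun*, with r = 0.83 and rho = 0.79 (both permutation p = 1e-05, adjusted p = 2.2e-04 and 3.0e-04), and r = 0.79 without 2 libraries. By r this level passed with 4 of the 10 genes, the others being *Nr4a1*, *Atf3* and *Ier2* (r = 0.78, 0.64 and -0.51).

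The genes whose variation between mice was most like the mean of the 8 tested genes were sought among 12342 others, over 36 libraries with group and sex means removed. The closest were Gm37352, an unclassified transcript (r = 0.79), *Hes1*, a transcriptional repressor of the Notch pathway (r = 0.76), *Adamts1*, a matrix protease (r = 0.73), *Amotl2* (r = 0.73), *Grasp* (r = 0.71), the adaptor *Gab1* (r = 0.71), the growth factor *Pdgfa* (r = 0.71), *Plekhh3* (r = 0.71), *Slc25a25* (r = 0.70) and *Arhgef17* (r = 0.70). None of these 10 was among the 46 compared genes of the wider immediate early list (0 of 10), whose median r was 0.32 against -0.05 for all genes compared. Taken singly, *Nr4a1* was nearest to *Tob1* and *Usp2* (r = 0.95 each), *Jun* to *Hivep2* and *Sorbs3* (r = 0.94 each), *Junb* to *Socs3* (r = 0.71), *Dusp1* to *Tsc22d3*, a glucocorticoid-induced gene (r = 0.78), *Atf3* to *Otud1* (r = 0.82) and *Ier2* to Gm14699 (r = 0.73). *Fos* had *Dusp1* itself as its nearest gene (r = 0.71).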

How the data were processed

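RNA was extracted from tibiae after removal of epiphyses and marrow, and the authors sequenced stranded poly(A) libraries, aligned paired-end reads to GRCm38 with STAR (version 2.73a in the submitters' processing notes) and counted them on GENCODE genes with QoRTs. The authors deposited TPM, which sum to 1000000 in each of the 36 libraries. How TPM were calculated is not given in the sources used here. Multiplying each value by the length of its gene minus 218 bp, and by 1 factor for the library, gave whole reads for 100% of values, within 0.01 of a read. Reads recovered in this way gave the depth, and limma-voom on them was an alternative. The authors' share of G and C bases, a fraction between 0 and 1 that they deposited with the TPM, entered no test.

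Each library was rescaled by the median ratio over 23632 genes with reads in every library. Genes averaging 0.5 TPM or more were tested with limma on log2(TPM + 0.5), all libraries in 1 fit with sex as a covariate, a Benjamini-Hochberg threshold of 0.05 and group by sex means for interactions. Correlations used 100000 permutations. The genes described and the lists were chosen with earlier results of these data known. All 10 genes were named, and from the lists those with the highest mean or the largest called changes. The 10 genes most like them had a mean of at least 1 TPM and the highest correlation. With a log2 change of 1 added to 200 of 15902 genes of simulated data, 166 were called and 6 others. Alternatives were TPM as deposited, quantile normalization, pseudocounts of 0.1 and 1, no filter and a filter at 5 TPM, voom, no sex covariate, the compared groups only, either sex alone, array weights, marker list covariates and fits without 1 library. Chosen after seeing the data were the correlations of all pairs, the relations to library measures and leaving out the 3 mice with WT in their names. The human transgene was not analysed here. Fits ran in R 4.3.3 with limma 3.58.1. Other steps used Python 3.11.15 with scipy 1.17.1, pandas 2.3.3, numpy 2.4.6 and, for plots, matplotlib 3.10.9.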

Additional observations from a re-analysis of the deposited data

Results flagged for a closer look

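In each sex of each group, the highest and lowest of 6 mice were compared with the other 5 for the 10 genes, and 6 of 60 sets held a mouse that stood apart, where chance gives about 1 in 20. *Jun* was at 5.05 TPM in wild-type female replicate 6, and at 2.54 to 3.16 in the other wild-type females. *Egr2* was at 0.391 TPM in wild-type male replicate 10, and at 0.171 to 0.230 in the other wild-type males. *Atf3* was at 1.99 TPM in saline-treated male replicate 12, where the others held 0.547 to 1.03, and at 2.05 in ABE-treated female replicate 1, where the others held 0.594 to 1.09. *Ier2* was at 7.54 TPM in ABE-treated female replicate 2, against 4.83 to 5.76 in the others, and at 8.66 in ABE-treated male replicate 12, against 5.72 to 6.76.

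The rise of *Egr1* in ABE-treated against wild-type mice differed between the sexes, with a log2 difference, female minus male, of -1.15 (adjusted p = 0.034 from limma). It kept this direction in all 9 other settings and 36 fits without 1 library, and its adjusted p was above 0.05 in 1 and 10 of these.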

How the results depend on the processing

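Of 2651 refits of the changes of the 8 tested genes, or all 10 without a filter, 2533 kept their direction and side of the threshold, 36 lost the call, 14 gained one and 68 turned direction, 64 of them called in neither fit. The 4 others were, with TPM as deposited, *Junb* in ABE-treated against wild-type (-0.040) and *Dusp1* in females against males (-0.28), and, with marker list covariates, the sex difference of saline-treated against wild-type of *Jun* (0.53) and *Nr4a1* (0.99). The cause was not tested.

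Uncalled values that turned with TPM as deposited were *Ier2* in saline-treated against wild-type (-0.058), *Fos* and *Egr1* in ABE-treated against saline-treated (-0.33 and -0.16), *Nr4a1* in females against males (-0.17), and the sex differences of *Atf3* in saline-treated against wild-type (0.068), of *Dusp1* in ABE-treated against saline-treated (-0.57) and of *Ier2* and *Dusp1* in ABE-treated against wild-type (-0.31 and -0.38). With marker covariates they were *Ier2* in ABE-treated against wild-type (0.089), *Fos* and *Egr1* in ABE-treated against saline-treated (-0.19 and -0.15), and the sex differences of *Atf3* in saline-treated against wild-type (0.34) and of *Nr4a1* and *Ier2* in ABE-treated against wild-type (0.38 and -0.046). In females alone *Fos* and *Egr1* turned between the transgenic groups (-0.18 and -0.22), and in males alone *Ier2* in saline-treated against wild-type (-0.071). *Fos* between the transgenic groups also turned with quantile normalization (-0.0057) and array weights (-0.042), and *Jun* in females against males with array weights (0.046). The sex difference of *Atf3* in saline-treated against wild-type turned with quantile normalization (0.027), a pseudocount of 0.1 (0.018), voom (0.023) and array weights (0.020), those of *Dusp1* in ABE-treated against saline-treated and against wild-type with quantile normalization (-0.12 and -0.034), and those of *Nr4a1* in ABE-treated against saline-treated (0.36) and *Ier2* in ABE-treated against wild-type (-0.0080) without the 3 mice with WT in their names. Without 1 library, *Fos* between the transgenic groups ran from -0.079 to 0.061 and *Jun* in females against males from -0.11 to 0.011. In the same fits the sex differences in saline-treated against wild-type ran from -0.11 to 0.14 for *Atf3* and -0.068 to 0.11 for *Dusp1*, those in ABE-treated against saline-treated from -0.32 to 0.23 for *Nr4a1* and -0.048 to 0.17 for *Dusp1*, and that in ABE-treated against wild-type from -0.017 to 0.20 for *Dusp1*.

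Between saline-treated and wild-type mice 8315 genes were called, 4608 with TPM as deposited, 13170 with no filter, 2043 at 5 TPM, 3273 in females alone and 2825 with marker covariates, and 7741 to 8865 without 1 library. Of the described genes 7 were called, 4 at 5 TPM, where 5 were tested, 5 in females alone, with *Jun*, *Nr4a1* and *Atf3* lost and *Ier2* gained, 6 in males alone, with *Atf3* lost, 5 with marker covariates, and 7 in every fit without 1 library. In ABE-treated against wild-type mice 11156 genes were called, 19138 with no filter, 2614 at 5 TPM, 1894 with marker covariates and 10955 to 11383 without 1 library. Among those described 7 were called, 4 at 5 TPM and 4 with marker covariates, and 7 in every fit without 1 library. In ABE-treated against saline-treated mice 7674 were called, 1775 at 5 TPM, 4730 in females, 3210 in males, 803 with marker covariates and 6727 to 8451 without 1 library. Of the described genes 6 were called, 4 with TPM as deposited, 3 in females, 2 in males, 1 with marker covariates and 5 to 6 without 1 library, 5 being the count without ABE-treated replicate 1, where *Atf3* was lost.

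Between females and males 79 genes were called, 8454 with TPM as deposited, 241 with no filter, 8 at 5 TPM, 321 with array weights, 721 with marker covariates and 55 to 125 without 1 library. Of the described genes 0 were called, 7 with TPM as deposited and 1 with marker covariates, and 0 in every fit without 1 library. The sex difference of saline-treated against wild-type had 164 calls, 0 with TPM as deposited (1409 at an unadjusted p under 0.05), 34 with quantile normalization, 274 and 99 with pseudocounts of 0.1 and 1, 47 with no filter, 7 at 5 TPM, 424 with voom, 3446 with array weights, 1444 with marker covariates, 0 without the 3 mice with WT in their names (4067 unadjusted) and 0 to 1230 without 1 library. Among those described 0 were called, 1 with array weights, 2 with marker covariates and 0 to 1 without 1 library, the 1 being *Ier2* without ABE-treated replicate 2. That of ABE-treated against saline-treated had 9 calls, 2 with TPM as deposited, 0 with quantile normalization (2401 unadjusted), 3 at 5 TPM, 1868 with array weights, 55 with marker covariates, 620 without the 3 named mice and 0 to 204 without 1 library. Of the described genes 0 were called, 1 each with array weights, with marker covariates and without the 3 named mice, and 0 in every fit without 1 library. That of ABE-treated against wild-type had 585 calls, 386 with TPM as deposited, 30 at 5 TPM, 2777 with array weights, 2250 with marker covariates and 171 to 1307 without 1 library. Among those described 1 was called, 0 with no filter, 0 at 5 TPM and 0 to 1 without 1 library, *Egr1* being lost without any 1 of wild-type replicates 1, 2, 6, 7, 11 and 12 and ABE-treated replicates 4, 6, 8 and 12.

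Of 54 refits of the correlations with *Fos*, 6 gained a call, all with TPM as deposited, and that of *Egr2* in wild-type mice, uncalled, turned to -0.0092 with a pseudocount of 1. No paired analysis was made. The sample titles hold mouse names, the replicate numbers were assigned here, and neither gives litters or pairs. The paper describes the mice of the groups as littermates, and litter entered no fit. Depth limits *Fosb*, with as few as 93 reads, more than the others.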
